A study of Mus musculus and Homo sapiens with 18 samples.

Results

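Gemcitabine is a cytidine analogue that must be taken up by a cell, phosphorylated and spared from deamination before it can act on DNA synthesis. The 10 mouse genes described here code for proteins of that route: the nucleoside transporters Slc29a1 and Slc29a2, the kinases Dck and Cmpk1, the deaminases Cda and Dctd, the dNTP hydrolase Samhd1, the ribonucleotide reductase subunits Rrm1 and Rrm2, and thymidylate synthase, Tyms. They were listed by symbol for their part in gemcitabine metabolism, with earlier results of these data known, and all 10 were found among the 55858 genes of the mouse tables. The study sequenced polyadenylated RNA of 18 bladder carcinoma libraries in 6 groups of 3, of which the 12 mouse libraries in 4 groups are used here. The titles of all 4 mouse groups carry the name GEMM (genetically engineered mouse model). The terms GEMM libraries and GEMM pair are used here for the first pair of groups alone. In that pair, the libraries named Relapse are labelled as given chemotherapy, which the treatment protocol spells out as cisplatin and gemcitabine. The others are control libraries, for which the protocol names a vehicle. The second pair is the mouse line CUUC-G with the guide sgIgfbp5 or the guide sgScr. Igfbp5 codes for a binding protein that controls access of insulin-like growth factors to their receptor. The sample labels call the sgIgfbp5 libraries knockdowns and the series design speaks of knockouts. Strain, age, the engineered alleles, the promoter that drives them, doses and times are not given in the labels. Beyond the name GEMM in the titles, neither is the origin of CUUC-G. It is also not given whether replicates are separate animals, clones or cultures, so p-values measure only the spread between these libraries. The questions asked were how the relapsed libraries differed from control libraries and what differed when Igfbp5 was targeted.

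As background, gemcitabine crosses the plasma membrane on equilibrative and concentrative nucleoside transporters, and deoxycytidine kinase adds the first phosphate, the step that commits the drug to activation. Cytidine deaminase turns the free nucleoside into an inactive uridine form, while the diphosphate blocks ribonucleotide reductase and the triphosphate is built into DNA. Ribonucleotide reductase pairs a large catalytic subunit, RRM1, with a small radical-bearing subunit, RRM2, whose protein is made in S phase, and supplies the deoxynucleotides that compete with the drug. High RRM1, RRM2 or CDA and low SLC29A1 or DCK are known from other work as correlates of gemcitabine resistance in tumours.

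Total estimated counts per library, in units of 1e6, were 18.965 to 21.757 in the GEMM pair and 19.211 to 20.73 in CUUC-G. Igfbp5 itself was low throughout, with 27 estimated counts over the control, 149 over the relapsed libraries, 114 with sgScr and 30 with sgIgfbp5. Defining lymphocyte and pan-leukocyte transcripts were at or near 0 in the libraries labelled as bladder tumours: Cd3e and Cd3d had 0 counts in all 12 libraries, Ptprc had 2 counts over the control libraries and 0 elsewhere, and 9 leukocyte markers summed to at most 0.199 TPM in any GEMM library. Other marker lists differed between the groups. Summed over 8 macrophage markers, the level was 6.53 to 8.37 TPM in control and 29.3 to 32.0 in relapsed libraries. It was 26.4 to 27.6 in sgScr and 6.92 to 10.4 in sgIgfbp5 libraries. Cd14 was the largest part in each group, with means of 3.69, 23.4, 21.1 and 5.75 TPM in that order. Cd68 had 3.08, 6.14, 4.81 and 2.94 TPM, while C1qa and C1qb had 0 counts throughout. In the same order, 7 endothelial markers summed to 0.518 to 1.05, 36.9 to 40.0, 34.0 to 37.8 and 2.49 to 3.35 TPM, nearly all Kdr at relapse, with Tie1 at 0 counts throughout, and 6 smooth muscle markers to 2506 to 2603, 1167 to 1220, 1172 to 1219 and 148 to 163 TPM. The 8 fibroblast markers summed to 5759 to 5930, 2380 to 2399, 2281 to 2494 and 1251 to 1400 TPM, a sum carried by the collagens Col1a1, Col1a2 and Col3a1. Within that list Pdgfra had a mean of 3.40 TPM in control and 26.7 TPM in relapsed libraries, the opposite direction. The 19 urothelial markers summed to 23.6 to 28.9, 392 to 414, 395 to 399 and 109 to 128 TPM. Among these, Krt5 and Upk3a had 0 counts in every library, Krt8 had 1 count over the control and 8583 over the relapsed libraries, and Gata3 had 937 and 102, the opposite direction. The Y-linked gene Ddx3y had 4503 counts over the control libraries and 0 in each of the 9 others. These differences separate the same libraries as the comparisons below, and their part in the results for the 10 genes was not tested. Over 12670 genes with a mean of at least 1 TPM in both, the relapsed and the sgScr libraries had mean levels within 1.5-fold of each other for 95.8%, against 59.3% for relapsed and control and 52.4% for sgIgfbp5 and sgScr. In bulk RNA, a different mix of cells and a different amount of RNA per cell cannot be told apart.

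Because Rrm1, Rrm2 and Tyms supply deoxynucleotides for the same S phase and moved together in both comparisons, but by very unequal amounts, their upstream sequences are shown side by side. Each line gives the 250 bases before the RefSeq transcription start (GRCm38.p6, gene strand, 5′ to 3′), with the CCAAT box and the GC box recognised by Sp1 (GGGCGG, or CCGCCC on the other strand) in capitals. The windows are chr7:102441445-102441694 on the plus strand for Rrm1, chr12:24708004-24708253 on the plus strand for Rrm2 and chr5:30073626-30073875 on the minus strand for Tyms.
Rrm1: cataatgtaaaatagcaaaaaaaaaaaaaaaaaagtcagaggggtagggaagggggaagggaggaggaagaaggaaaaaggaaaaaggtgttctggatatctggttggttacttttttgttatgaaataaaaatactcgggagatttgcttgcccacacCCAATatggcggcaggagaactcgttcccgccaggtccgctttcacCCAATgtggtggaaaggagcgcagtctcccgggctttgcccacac
Rrm2: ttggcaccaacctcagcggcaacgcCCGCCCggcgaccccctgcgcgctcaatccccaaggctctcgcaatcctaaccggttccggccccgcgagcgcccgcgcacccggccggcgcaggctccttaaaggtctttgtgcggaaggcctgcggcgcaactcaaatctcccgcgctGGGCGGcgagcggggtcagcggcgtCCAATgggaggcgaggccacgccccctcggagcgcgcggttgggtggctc
Tyms: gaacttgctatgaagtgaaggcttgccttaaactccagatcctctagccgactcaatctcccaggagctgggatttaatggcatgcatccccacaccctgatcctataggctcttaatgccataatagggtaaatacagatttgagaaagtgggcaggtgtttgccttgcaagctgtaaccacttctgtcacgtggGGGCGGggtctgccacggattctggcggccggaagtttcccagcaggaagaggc

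The Rrm1 window held 2 CCAAT boxes, beginning 91 and 45 bases before the start, and no GC box. The Rrm2 window held 1 CCAAT box at 50 bases before the start and GC boxes at 225 and 75 bases before it. The Tyms window held a GC box at 54 bases before the start and no CCAAT box. Over the whole table of 32851 mouse promoters, each 300 bases long and searched on both strands, 37.4% held CCAAT and 35.7% GGGCGG. All 10 genes had at least 1 promoter in that table, 19 in all. The letters of the E2F words TTTCCCGC, TTTCGCGC, TTTGCCGC and TTTGGCGC, which 2.27% of all promoters held, were in none of the 19, and neither was TATAAA (13.6% of all). These matches describe letters in a window and not sites bound by a factor.

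In the relapsed libraries 8 of the 10 genes were higher than in control libraries at an edgeR adjusted p under 0.05, 0 were lower and 2, Dctd and Samhd1, were not called. Of all 14373 genes tested, 73.5% were called, 36.6% as higher and 36.9% as lower, so most genes of any kind were called here. Rrm2 rose 7.79-fold, Cda 2.85-fold, Slc29a2 2.46-fold and Tyms 2.26-fold, and the other 4 called genes rose by less than 2-fold. The median log2 fold change was 0.695 over the 10 genes and 0.00188 over all genes tested, and the median size of change regardless of sign was 0.695 against 0.516. The CPM of the groups did not overlap for 8 of the 10, against 75.3% of all genes tested. At an unadjusted p under 0.05, 9 were higher and 0 lower. DESeq2 called 8 higher and 0 lower, and limma on log2(TPM + 1) called 7 higher and 1 lower.

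In CUUC-G cells with sgIgfbp5, 7 of the 10 genes were lower than with sgScr, Samhd1 was higher, and Slc29a2 and Dctd were not called. Of all 14553 genes tested, 70.8% were called, 36.5% as higher and 34.3% as lower. Rrm2 fell to 0.126 of its sgScr level, Cda to 0.151, Tyms to 0.282 and Cmpk1 to 0.442. The median log2 fold change was -0.812 over the 10 genes and 0.0588 over all genes tested, and the median size of change was 0.812 against 0.636. CPM did not overlap between the groups for 9 of the 10, against 73.9% of all genes tested, with Slc29a2 the exception. At an unadjusted p under 0.05, 1 was higher and 8 lower. DESeq2 called 1 higher and 7 lower. Limma on log2(TPM + 1), a fit without a low-count filter and a fit with a replicate block each called 1 higher and 6 lower. Library size alone called 2 higher and 6 lower.

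Slc29a1, Dck, Cmpk1, Cda, Rrm1, Rrm2 and Tyms were both higher at relapse and lower with sgIgfbp5, 7 of the 10, against 24.7% of the 13904 genes tested in both comparisons (3428 genes). The relapsed and sgScr levels of these genes lay close together: the ratio of mean TPM, relapsed over sgScr, was 1.00 for Rrm2, 1.01 for Cda and Slc29a1, 1.02 for Tyms and Cmpk1, 1.07 for Dck and 1.1 for Rrm1. Of the remaining genes it was 0.964 for Dctd and Samhd1 and 1.46 for Slc29a2. The 2 tables hold different libraries, and 54.9% of all genes with at least 1 TPM in both groups also lay within 1.1-fold, so this closeness is shared by most genes. The opposite ends lay further apart, with a ratio of control over sgIgfbp5 of 1.05 for Rrm2 but 2.03 for Tyms, 2.54 for Cda and 0.383 for Slc29a2.

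**Figure D1:**
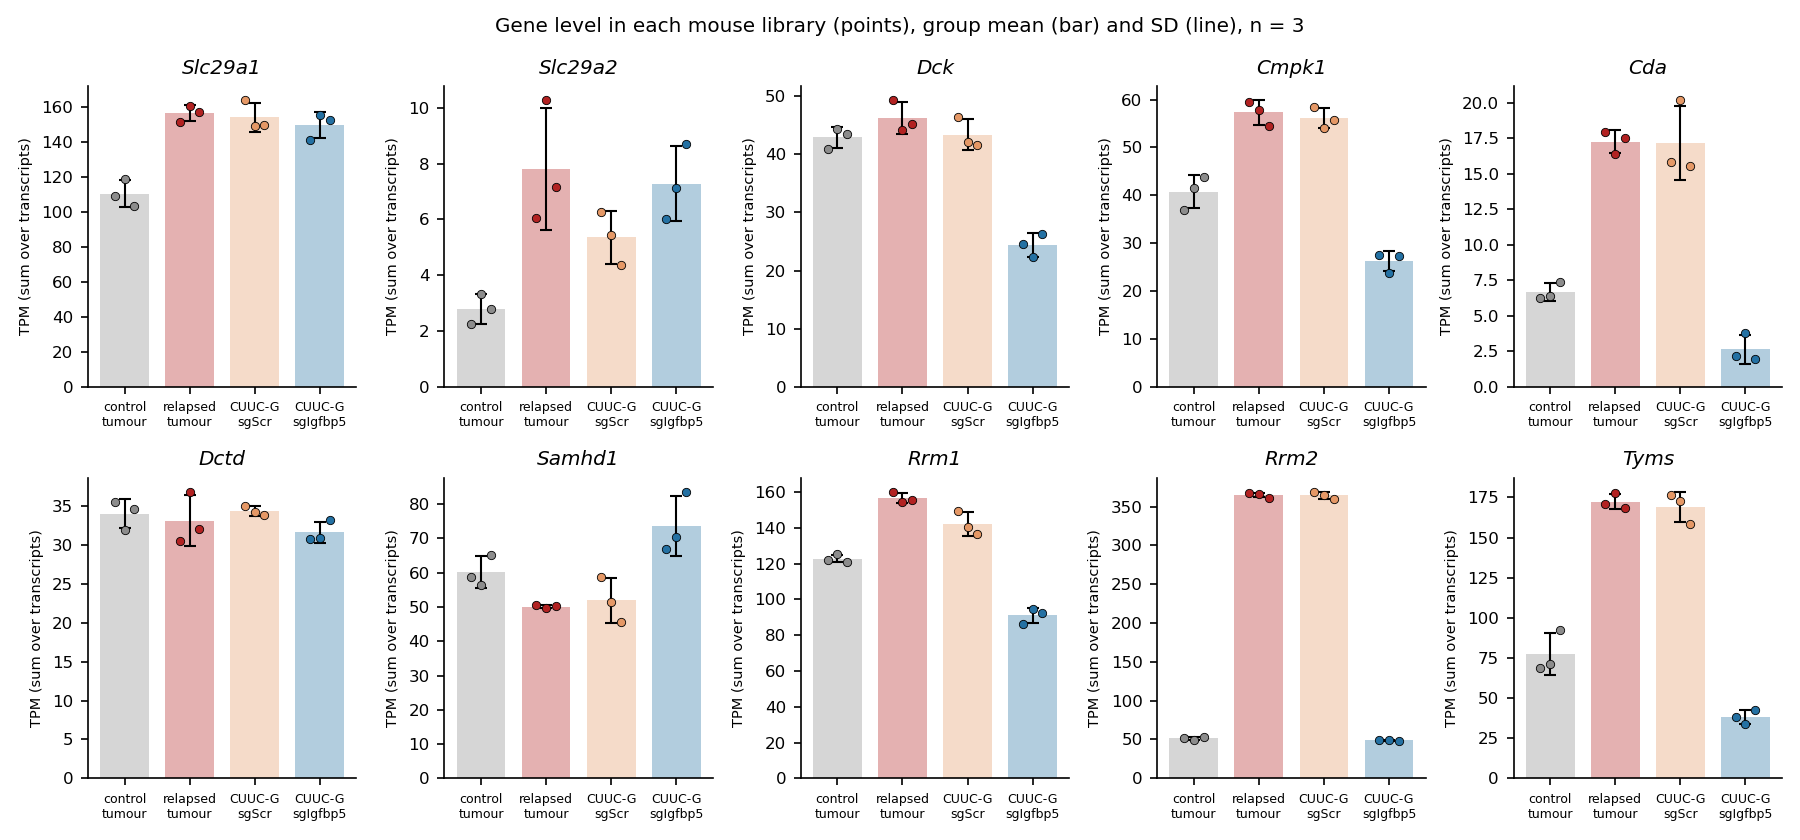
Level of each gene in TPM (vertical axes, each from 0) in the 4 mouse groups; points are libraries, bars group means and lines the SD of 3 libraries. Rrm2 lies between 48.2 and 52.7 TPM in control and sgIgfbp5 libraries and between 360 and 369 TPM in relapsed and sgScr libraries, while Dctd stays between 30.5 and 36.9 TPM in all 12.

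Slc29a1, the main equilibrative carrier of gemcitabine (ENSMUSG00000023942.16; GRCm38 chromosome 17, 45585200 to 45599606, minus strand), was among the more abundant of the 10 transcripts in every group. It had 109, 119 and 103 TPM in the control and 152, 161 and 157 TPM in the relapsed libraries. The groups did not overlap, and the log2 fold change in counts was 0.70 ± 0.04 (SE, n = 3; edgeR adjusted p = 3.96e-14). In CUUC-G it had 164, 149 and 150 TPM with sgScr and 141, 156 and 153 TPM with sgIgfbp5. Those TPM values overlapped, although the CPM of the groups did not, with 179 ± 1.31 and 156 ± 9.73 CPM (SD, n = 3). This was a log2 fold change of -0.20 ± 0.07 (edgeR adjusted p = 0.025). That call was lost without sgScr replicate 2 or 3 or without sgIgfbp5 replicate 1 or 3 (adjusted p between 0.0569 and 0.0981), with library size alone (log2 fold change -0.08, adjusted p = 0.281) and in limma on log2(TPM + 1) (-0.04, adjusted p = 0.587).

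Slc29a2, the second equilibrative carrier (ENSMUSG00000024891.7; chromosome 19, 5023860 to 5031972, plus strand), was the lowest or next to lowest of the 10 in each group. It had 2.23, 3.33 and 2.79 TPM in control and 6.04, 10.3 and 7.14 TPM in relapsed libraries, without overlap, from 73 to 81 and 177 to 200 estimated counts. This gave a log2 fold change of 1.30 ± 0.16 (SE, n = 3; edgeR adjusted p = 2.92e-08). With sgScr it had 6.26, 5.44 and 4.37 TPM and with sgIgfbp5 6.01, 7.13 and 8.69 TPM. Those groups overlapped, and the log2 fold change of 0.25 (95% interval -0.03 to 0.54) was not called (edgeR adjusted p = 0.137). Library size alone gave 0.37 with an adjusted p of 0.0431. Within each library, Slc29a1 exceeded Slc29a2 by a ratio of TPM of 48.9, 35.7 and 37.1 in control libraries. In relapsed libraries the ratio was 25.1, 15.7 and 22. In relapsed replicate 2, 44.2% of the Slc29a2 TPM lay on a retained-intron transcript of 440 nucleotides with 9.4 estimated counts. The ratio was lower in every relapsed than in every control library, with an exact two-sided permutation p of 0.1, the smallest that 3 against 3 allows. In CUUC-G it was 29.3 ± 4.36 with sgScr and 21 ± 3.07 with sgIgfbp5 (SD, n = 3; exact permutation p = 0.1).

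The other carriers gave little signal. The concentrative carriers Slc28a1, Slc28a2 and Slc28a3 had between 0 and 8 estimated counts per library and were not tested. Slc29a3, which acts in lysosomes and mitochondria, differed by -0.18 on the log2 scale at relapse (edgeR adjusted p = 0.032) and by 0.29 in CUUC-G (adjusted p = 0.080). Slc29a4 was tested in CUUC-G alone and was higher with sgIgfbp5, by 3.20 ± 0.62 on the log2 scale (edgeR adjusted p = 0.00075), from a low level.

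Dck, which adds the first phosphate to gemcitabine (ENSMUSG00000029366.11; chromosome 5, 88764996 to 88783281, plus strand), showed a small difference at relapse and a larger one in CUUC-G. It had 40.9, 44.4 and 43.4 TPM in control and 49.3, 44.2 and 45.1 TPM in relapsed libraries, so the groups overlapped in TPM though not in CPM (76.2 ± 2.98 and 90.2 ± 5.32, SD, n = 3). The log2 fold change in counts was 0.24 ± 0.05 (edgeR adjusted p = 0.00012), and limma on log2(TPM + 1) gave 0.10 with an adjusted p of 0.168. In CUUC-G the values were 46.4, 42.0 and 41.7 TPM with sgScr and 24.5, 22.3 and 26.3 TPM with sgIgfbp5. Every sgIgfbp5 library lay below every sgScr library, with a log2 fold change of -0.91 ± 0.08 (edgeR adjusted p = 1.01e-06).

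Cmpk1, the UMP/CMP kinase that adds the next phosphate (ENSMUSG00000028719.9; chromosome 4, 114959336 to 114987241, minus strand), moved by more than Dck in both comparisons. It had 37.0, 41.6 and 43.8 TPM in control and 59.5, 57.9 and 54.5 TPM in relapsed libraries, without overlap, and a log2 fold change of 0.69 ± 0.05 (SE, n = 3; edgeR adjusted p = 3.29e-13). It had 58.4, 54.2 and 55.7 TPM with sgScr and 27.6, 23.8 and 27.4 TPM with sgIgfbp5, a log2 fold change of -1.18 ± 0.09 (edgeR adjusted p = 4.90e-07).

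Of 18 other nucleoside and nucleotide kinases 10 rose, 5 fell and 3 were not called at relapse, with a median log2 fold change of 0.372. In CUUC-G 5 rose, 8 fell and 5 were not called, with a median of -0.18. For scale, 36.6% of all genes tested rose and 36.9% fell at relapse. In CUUC-G 36.5% of all genes rose and 34.3% fell. Tk1, the S phase thymidine kinase, had 62.1, 55.1 and 58.2 TPM in control and 125, 113 and 120 TPM in relapsed libraries, a log2 fold change of 1.25 ± 0.06 (SE, n = 3). With sgScr it had 125, 121 and 121 TPM and with sgIgfbp5 14, 17.6 and 16.4 TPM, a log2 fold change of -3.17 ± 0.09. Among these kinases, Ak4, a mitochondrial adenylate kinase, changed by 1.68 and -2.38 on the log2 scale and the uridine-cytidine kinase Uck2 by 0.98 and -0.90. Ak1 was not called at relapse (0.04) and fell by 1.25 with sgIgfbp5.

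**Figure D2:**
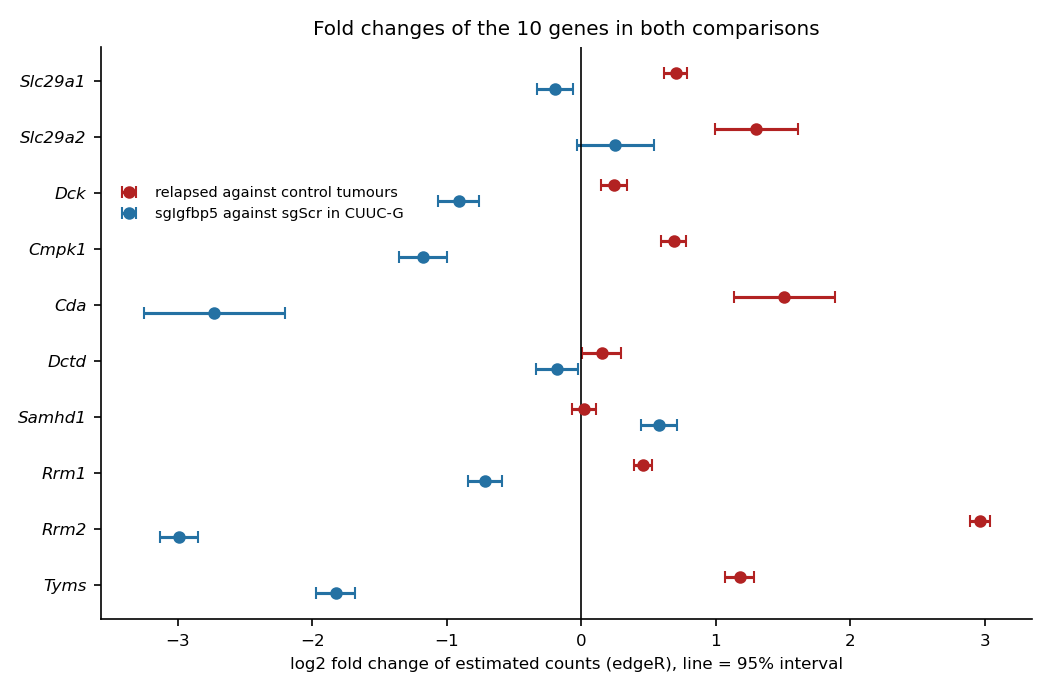
Log2 fold change of each gene (horizontal axis) for relapsed against control libraries in red and for sgIgfbp5 against sgScr in blue; points are edgeR estimates and lines 95% intervals. Rrm2 has the largest change in both, 2.96 and -2.99, and the Samhd1 estimate at relapse is 0.02.

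Cda, which deaminates gemcitabine to an inactive form (ENSMUSG00000028755.4; chromosome 4, 138338424 to 138367992, minus strand), changed by 2.85-fold at relapse and to 0.151 of its sgScr level in CUUC-G, from low counts. Estimated counts were 50, 43 and 53 in control and 143, 130 and 142 in relapsed libraries, or 6.23, 6.39 and 7.37 against 17.9, 16.4 and 17.5 TPM. The groups did not overlap, and the log2 fold change was 1.51 ± 0.19 (SE, n = 3; edgeR adjusted p = 5.78e-08). In CUUC-G the counts were 128, 179 and 138 with sgScr and 19, 35 and 17 with sgIgfbp5, or 15.8, 20.2 and 15.5 against 2.16, 3.79 and 1.92 TPM. The highest sgIgfbp5 library stayed far below the lowest sgScr library, with a log2 fold change of -2.73 ± 0.27 (edgeR adjusted p = 3.55e-06). The ratio of Dck to Cda TPM compares transcripts of an activating and an inactivating enzyme, and not their protein or activity. It was 6.57, 6.95 and 5.89 in control and 2.75, 2.70 and 2.58 in relapsed libraries. In CUUC-G it was 2.94, 2.08 and 2.69 with sgScr and 11.3, 5.88 and 13.7 with sgIgfbp5, where its spread was wide. The groups did not overlap in either comparison (exact two-sided permutation p = 0.1 in both).

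Dctd, the dCMP deaminase, which also acts on gemcitabine monophosphate (ENSMUSG00000031562.17; chromosome 8, 48099092 to 48153233, plus strand), was called in neither comparison. Its TPM was 35.6, 32.0 and 34.7 in control, 30.5, 36.9 and 32.1 in relapsed, 35.1, 34.2 and 33.9 in sgScr and 30.8, 30.9 and 33.3 in sgIgfbp5 libraries. The log2 fold change was 0.15 (95% interval 0.01 to 0.30; edgeR adjusted p = 0.064) at relapse and -0.18 (95% interval -0.34 to -0.03; adjusted p = 0.0586) in CUUC-G. Both lay next to the threshold: without relapsed replicate 1 the adjusted p was 0.0151, without sgScr replicate 1 it was 0.0342 and without sgIgfbp5 replicate 2 it was 0.0191. Changes of 2-fold lay outside both intervals.

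Samhd1, which breaks down deoxynucleoside triphosphates (ENSMUSG00000027639.17; chromosome 2, 157097533 to 157135265, minus strand), was the only one of the 10 called higher with sgIgfbp5. At relapse its CPM was 99.7, 101 and 104 in control and 106, 104 and 98.5 in relapsed libraries, which overlapped, and the log2 fold change was 0.02 (95% interval -0.07 to 0.11; edgeR adjusted p = 0.668). On the TPM scale the same libraries did not overlap, with 58.9, 56.4 and 65.3 TPM in control and 50.5, 49.6 and 50.3 TPM in relapsed libraries, and limma on log2(TPM + 1) gave -0.26 with an adjusted p of 0.00828. In CUUC-G it had 58.8, 51.6 and 45.6 TPM with sgScr and 66.8, 70.5 and 83.6 TPM with sgIgfbp5, without overlap. The log2 fold change in counts was 0.58 ± 0.07 (SE, n = 3; edgeR adjusted p = 1.35e-05).

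The transcripts of Samhd1 in the GEMM libraries are given here, and their part in the gap between counts and TPM was not tested. Other genes also had lower values on the TPM scale: Rrm2 had 2.81 in limma on log2(TPM + 1) against 2.96 in edgeR. That limma fit, without the scaling between libraries used in edgeR, called 3518 genes higher and 5129 lower at relapse. With edgeR 5260 were higher and 5299 lower. The long coding transcript Samhd1-201, of 3926 nucleotides, had 27.7, 28.7 and 27.9 TPM in control and 30.4, 31.5 and 28.4 TPM in relapsed libraries. The shorter coding transcript Samhd1-206, of 2036 nucleotides, had 23.9, 24.8 and 28.4 TPM in control and 16.5, 3.28 and 7.31 TPM in relapsed libraries. Its share of the gene's TPM was 42.6% ± 1.85 in control and 17.9% ± 13.3 in relapsed libraries (SD, n = 3). A further coding transcript, of 1996 nucleotides, was listed at 0 in the control libraries and in relapsed replicate 1 and had 9.92 and 6.83 TPM in relapsed replicates 2 and 3. Salmon divides reads that transcripts share by estimation, so these splits are less certain than the gene's total.

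**Figure D3:**
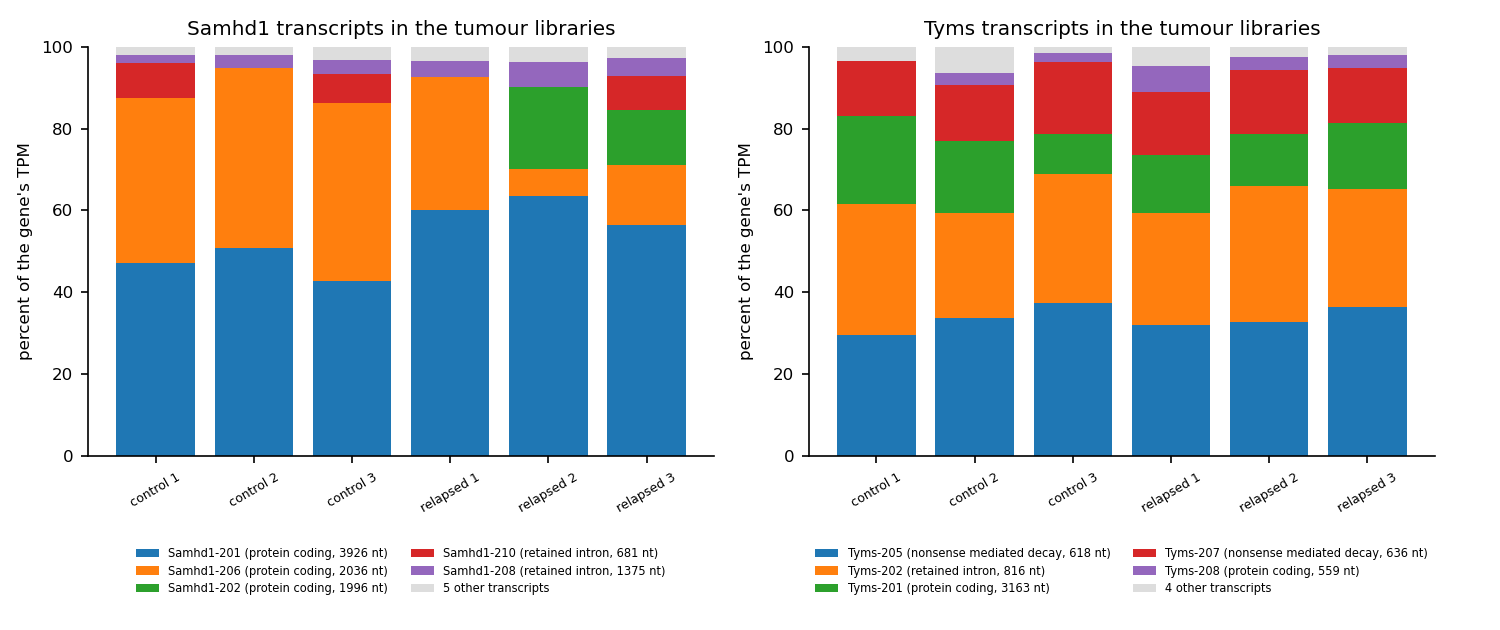
Share of the gene's TPM (vertical axis, percent) held by each annotated transcript of Samhd1 (left) and Tyms (right) in the 6 GEMM libraries, 1 bar per library. Samhd1-206 holds 40.5 to 43.9% in control and 6.61 to 32.6% in relapsed libraries, while the shares of the main Tyms transcripts differ little between the groups.

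Among 21 nucleotidases, deaminases and other clearance genes, 16 were tested in each comparison. At relapse 9 rose, 3 fell and 4 were not called, with a median log2 fold change of 0.345. In CUUC-G 1 rose, 8 fell and 7 were not called, with a median of -0.312. Over all genes tested, 36.6% rose and 36.9% fell at relapse, and 36.5% rose and 34.3% fell in CUUC-G. Nt5e, the surface 5′-nucleotidase CD73, had 4.71, 5.21 and 5.35 TPM in control and 11.7, 11.7 and 10.3 TPM in relapsed libraries, a log2 fold change of 1.26 ± 0.09 (SE, n = 3). It had 10.7, 9.12 and 8.14 TPM with sgScr and 0.877, 0.497 and 0.580 TPM with sgIgfbp5, and its fall of 3.96 on the log2 scale was larger than that of any of the 10 genes. The purine phosphorylase Pnp changed by 1.29 and -1.52 on the log2 scale. Nt5c2, a cytosolic nucleotidase that removes phosphate from nucleoside analogues, rose by 0.71 at relapse and differed by -0.23 in CUUC-G.

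Rrm1, the large subunit of ribonucleotide reductase and a direct target of gemcitabine diphosphate (ENSMUSG00000030978.11; chromosome 7, 102441695 to 102469771, plus strand), was the most abundant of the 10 in control libraries. It had 122, 125 and 121 TPM there and 160, 154 and 156 TPM in relapsed libraries, without overlap, and a log2 fold change of 0.46 ± 0.03 (SE, n = 3; edgeR adjusted p = 9.07e-13). With sgScr it had 150, 140 and 137 TPM and with sgIgfbp5 86.5, 94.4 and 92.7 TPM, a log2 fold change of -0.71 ± 0.07 (edgeR adjusted p = 1.82e-06).

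Rrm2, the small subunit (ENSMUSG00000020649.12; chromosome 12, 24708241 to 24714146, plus strand), changed by far more than its partner. Estimated counts were 1428, 1149 and 1273 in control and 9903, 9899 and 10011 in relapsed libraries, or 52.6, 48.7 and 52.7 against 367, 367 and 362 TPM. The log2 fold change was 2.96 ± 0.04 (SE, n = 3; edgeR adjusted p = 8.29e-30), and 96.7% of all genes tested had a lower one. In CUUC-G the counts were 9456, 10287 and 9769 with sgScr and 1289, 1361 and 1301 with sgIgfbp5, or 369, 365 and 360 against 49.1, 49.3 and 48.2 TPM. Its log2 fold change was -2.99 ± 0.07 (edgeR adjusted p = 7.94e-11), and 4.40% of all genes tested had a lower one. Libraries within each group differed by little beside the gap between groups, and 1 transcript, Rrm2-201, held 98.3% of the gene's TPM in control and 99.2% in relapsed libraries.

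The ratio of Rrm2 to Rrm1 TPM changed side, from 0.430, 0.389 and 0.435 in control to 2.29, 2.37 and 2.32 in relapsed libraries. With sgScr it was 2.47, 2.60 and 2.63, and with sgIgfbp5 0.568, 0.522 and 0.520. In each comparison all libraries of one group lay above 1 and all of the other below it, by 2.48 and -2.26 on the log2 scale (exact two-sided permutation p = 0.1 in both, the smallest possible).

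**Figure D4:**
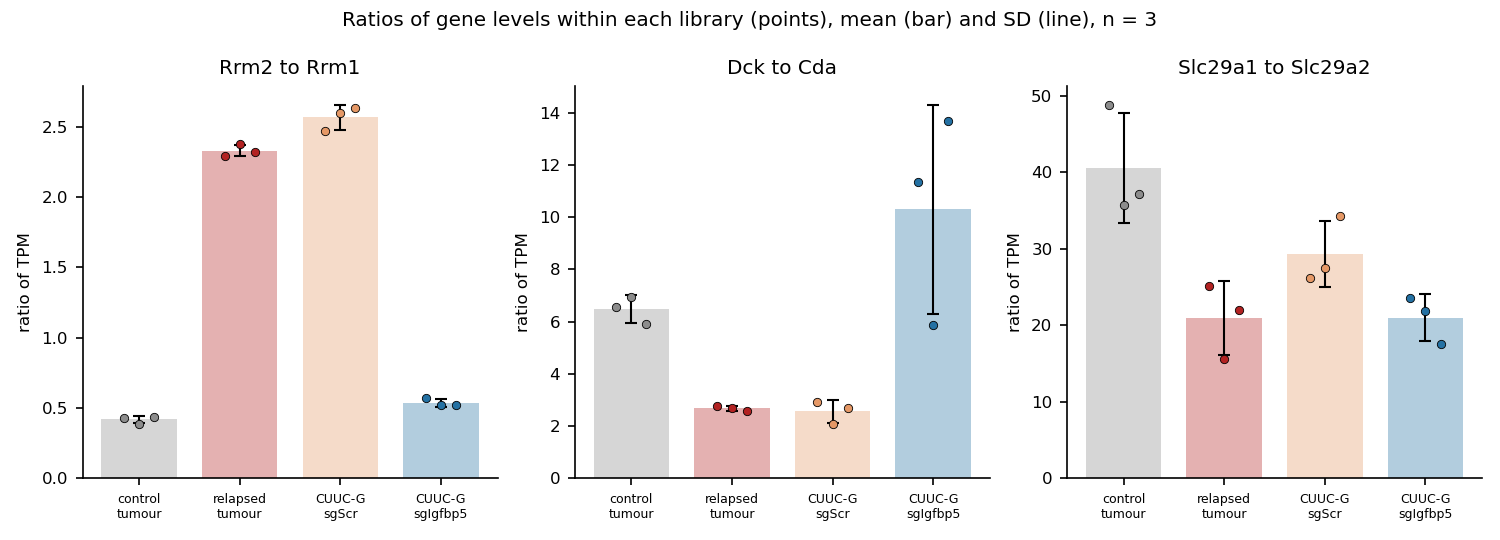
Ratios of TPM within each library (vertical axes, from 0) for Rrm2 to Rrm1, Dck to Cda and Slc29a1 to Slc29a2 in the 4 mouse groups; points are libraries, bars means and lines the SD of 3 libraries. The Rrm2 to Rrm1 ratio is at most 0.568 in control and sgIgfbp5 libraries and at least 2.29 in relapsed and sgScr libraries.

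Rrm2b, the alternative small subunit that p53 induces and that serves cells outside S phase, went the other way at relapse. It had 16.0, 18.4 and 18.0 TPM in control and 6.04, 6.61 and 6.42 TPM in relapsed libraries, without overlap, a log2 fold change of -1.42 ± 0.08 (SE, n = 3; edgeR adjusted p = 7.67e-15). In CUUC-G it had 7.41, 5.13 and 5.69 TPM with sgScr and 8, 6.14 and 9.26 TPM with sgIgfbp5. Those groups overlapped, with a log2 fold change of 0.36 ± 0.13 (edgeR adjusted p = 0.026).

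Tyms, which makes thymidylate and is a target of deaminated gemcitabine nucleotides (ENSMUSG00000025747.13; chromosome 5, 30058202 to 30073617, minus strand), followed Rrm2 in direction. It had 1025, 841 and 827 estimated counts in control and 1937, 1977 and 2140 in relapsed libraries, a log2 fold change of 1.18 ± 0.06 (SE, n = 3; edgeR adjusted p = 6.49e-17). In CUUC-G it had 1935, 2099 and 1991 counts with sgScr and 592, 581 and 636 with sgIgfbp5, a log2 fold change of -1.83 ± 0.07 (edgeR adjusted p = 2.70e-09). Neither pair of groups overlapped. In TPM the control libraries had 69.0, 71.0 and 92.2 and the relapsed ones 171, 178 and 169. Much of that TPM, though not of the estimated counts, sat on short transcripts that are not annotated as coding. In control libraries a nonsense-mediated decay transcript of 618 nucleotides held 33.5% of the gene's TPM and a retained-intron transcript of 816 nucleotides 29.8%. The full coding transcript Tyms-201, of 3163 nucleotides, held 16.2%. In relapsed libraries these shares were 33.7%, 29.9% and 14.4%. Tyms-201 alone had 14.8, 12.5 and 9 TPM in control and 24.3, 22.5 and 27.4 TPM in relapsed libraries, without overlap. By estimated counts it was the largest Tyms transcript in each of these libraries. Those counts were 628.1, 452.5 and 339.2 in control and 1018.3, 945.9 and 1175.6 in relapsed libraries. As for Samhd1, reads that transcripts share are divided by estimation, so these splits are less certain than the gene's total.

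The 11 other genes of dNTP and thymidylate synthesis, which include the folate cycle, did not follow Tyms as a group. At relapse 4 rose, 6 fell and 1 was not called. In CUUC-G 3 rose, 5 fell and 3 were not called. Over all genes tested, 36.6% rose and 36.9% fell at relapse, and 36.5% rose and 34.3% fell in CUUC-G. Mthfd2, a mitochondrial enzyme of the folate cycle, changed by -1.21 ± 0.04 at relapse and by 1.18 ± 0.07 in CUUC-G on the log2 scale (SE, n = 3). Of the 5 genes of de novo pyrimidine synthesis, 3 rose, 1 fell and 1 was not called at relapse, and 0 rose, 3 fell and 2 were not called in CUUC-G. Cad, which starts that pathway, changed by 0.50 and -0.48 and Umps, which ends in UMP, by 0.76 and -0.53.

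S phase genes, the setting in which Rrm2, Tyms and Tk1 act, mostly moved in the same direction as these genes, and by less than Rrm2. Of 21, 16 rose, 2 fell and 3 were not called at relapse, and 2 rose, 18 fell and 1 was not called in CUUC-G. Their median log2 fold change was 0.577 and -0.833. Over all genes tested, 36.6% rose and 36.9% fell at relapse, and 36.5% rose and 34.3% fell in CUUC-G. Mki67, a marker of dividing cells, had the largest rise and the largest fall of the list, 1.45 ± 0.04 and -2.71 ± 0.18 (SE, n = 3). None of the 21 exceeded Rrm2 in either comparison. Tk1, which was counted with the kinases and not in this list, fell by more than Rrm2 in CUUC-G (-3.17 against -2.99). Fen1, which removes flaps from Okazaki fragments, changed by 1.40 and -0.69, the DNA ligase Lig1 by 0.79 and -1.77 and the cyclin Ccne1 by 0.99 and -1.67. The helicase subunit Mcm7 rose in both, by 1.03 and 0.47. Of 14 genes that respond to stalled forks, 5 rose, 5 fell and 4 were not called at relapse, near the shares over all genes. In CUUC-G 3 rose, 7 fell and 4 were not called. Among the 14, Rpa1, the large subunit of the single-strand binding protein, changed by 0.64 and -1.12. Clspn, the adaptor of the checkpoint kinase Chek1, changed by 0.63 and -1.48.

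**Figure D5:**
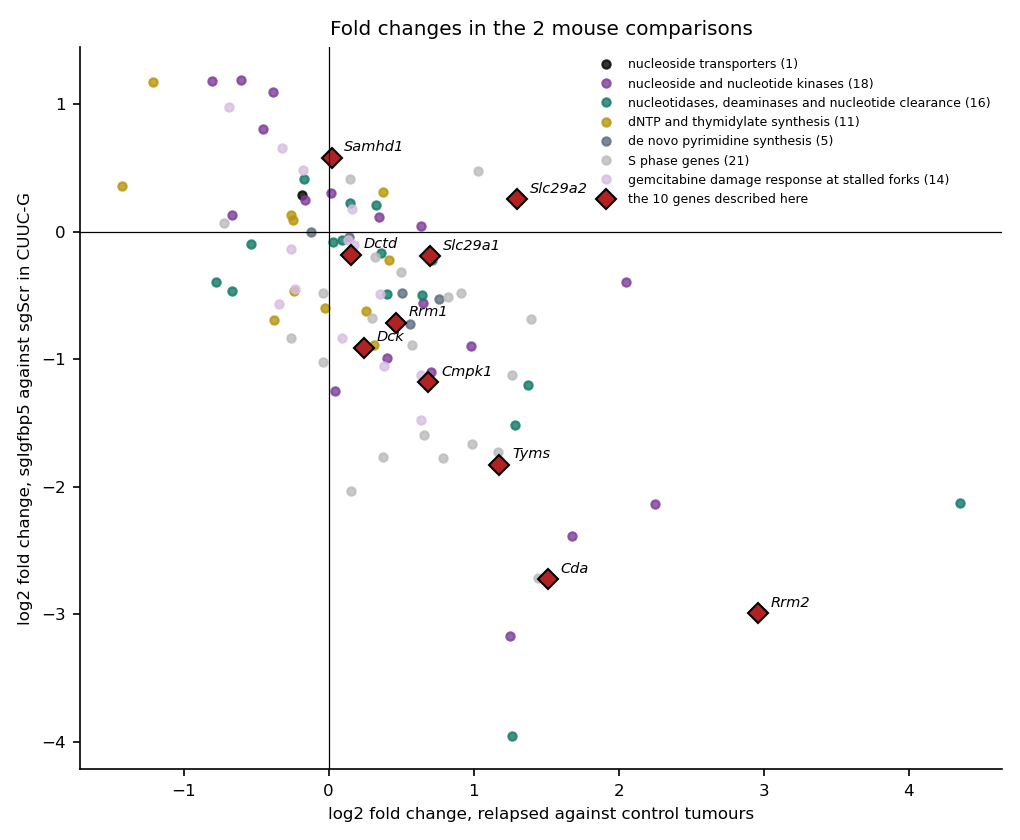
Log2 fold change at relapse (horizontal axis) against that with sgIgfbp5 in CUUC-G (vertical axis), 1 point per gene; diamonds are the 10 genes, circles the tested genes of the other lists, with their number in the key. Cda, Tyms and Rrm2 lie at the lower right, at 1.51 and -2.73, 1.18 and -1.83, and 2.96 and -2.99.

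Over the 10411 protein-coding genes whose average log2 CPM reached 2 in both comparisons, 103 others had a rise at relapse and a fall with sgIgfbp5 at least as large as those of Rrm2. The 5 genes nearest to Rrm2, by distance between the pairs of log2 fold changes, were Jam2 (2.88 and -2.97), Cebpd, Crip1, Gcnt1 and Pik3r5. The 5 nearest to Samhd1 were Scaf1, Ndufa12, Tcf3, Hdgf and Tbc1d14, with a distance of at most 0.0222. Neighbours found for the 10 genes had low estimated counts. The antisense gene Gm17080 inside Slc29a1 had at most 17 counts in any group, Gm45399 inside Rrm1 at most 7, and the pseudogene Tyms-ps had 0. Overlapping genes were sought in GENCODE M21 and copies by name alone, and how many reads were shared was not tested.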

How the data were processed

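Poly(A)-selected RNA was sequenced with a stranded kit, per the labels' protocols, and quantified with Salmon, per the submitters' processing notes, which give no version. Estimated counts and TPM are the units the authors deposited (TPM is abundance per transcript length, scaled to a fixed total). For the GEMM libraries these cover 147828 transcripts, with gene and biotype per the file headers, summed here to 55858 genes; the CUUC-G table gives whole numbers per gene, 153 of them 0 beside a TPM above 0, so they are rounded estimates. Counts were rounded. CUUC-G columns marked mI were taken as sgIgfbp5 because the labels mark the targeted human libraries hI. Unmatched columns numbered 0. The human line was not analysed here.

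Each mouse pair was tested with edgeR 4.0.16 (R 4.3.3; TMM, filterByExpr, robust quasi-likelihood, two-sided), with Benjamini-Hochberg adjustment over all genes and a threshold of 0.05; SE is the log2 fold change over the square root of F, and 95% intervals are normal. CPM used TMM-scaled library sizes. Ratios of TPM were tested by exact permutation of libraries. Alternatives were RLE and library-size scaling, DESeq2 1.42.0, other filters, limma 3.58.1 on log2(TPM + 1) or log2(TPM + 0.1) for genes averaging 1 TPM or more, a replicate block and each library left out; a transcript length offset and protein-coding transcripts alone were added after seeing the data. On simulated counts, 45 of 50 genes changed 2-fold were recovered among 14087 genes for relapse and 42 of 50 among 14270 for CUUC-G. At 1.5-fold, 38 and 35 of 50 were recovered, and the whole simulation gave 16 and 18 false calls. Far fewer genes were changed there than the 73.5% and 70.8% called in the data, so recovery under such widespread change was not tested. Positions came from GENCODE M21, where 51460 gene identifiers were found, 35 with the same version; promoters came from RefSeq (GRCm38.p6). The members and lists were chosen with earlier results of these data known. All 10 genes were named, and of each list counts and genes among the 4 with the smallest p per comparison. Replicate libraries were not duplicates (chi-square per degree of freedom 2.69 to 17.2). A few genes of the lists are not reported here.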

Additional observations from a re-analysis of the deposited data

How the results depend on the processing

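The direction of change of the 7 genes that were higher at relapse and lower with sgIgfbp5 was the same under every alternative run, and of the values for single genes 322 kept both direction and side of the threshold, 14 kept direction and lost the call, and 7 kept direction and gained one. The other 7 changed sign, all for Dctd or Samhd1 at relapse, which edgeR did not call. Dctd was at -0.04 in the 3 limma settings (adjusted p between 0.68 and 0.73). Under limma on log2(TPM + 1) with or without the TPM filter and on log2(TPM + 0.1), 1 gene was called lower at relapse against 0 with edgeR: Samhd1, at -0.26, -0.26 and -0.26 (adjusted p = 0.00828, 0.0152 and 0.00825). With a transcript length offset in edgeR its value was -0.14 (adjusted p = 0.0583), and the cause was not tested further. With library size alone, 2 genes were called higher in CUUC-G against 1, since Slc29a2 passed. The call of Dck at relapse was lost in limma on TPM and kept with a transcript length offset in edgeR (0.23, adjusted p = 0.00764). The limma fits on TPM had no TMM scaling, and on log2(TPM + 1) 3518 genes were called higher and 5129 lower at relapse. Dctd passed at relapse in protein-coding transcripts alone (0.25, adjusted p = 0.0268) and in CUUC-G with RLE scaling (-0.23, adjusted p = 0.0329). Replicate numbers did not pair the libraries: the correlation of same-numbered deviations lay between 0.00615 and 0.0148 for relapse and between -0.0817 and 0.093 for CUUC-G. In the relapse comparison, unlike CUUC-G, each library correlated best with its own number. With the replicate block, 10472 genes passed at relapse and 10037 in CUUC-G, and of the 10 genes only Slc29a1 in CUUC-G lost its call (-0.20, adjusted p = 0.055). With 43 to 53 counts of Cda per control library and 17 to 35 per sgIgfbp5 library, its folds were the least precise of the 10.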
